A study of Mus musculus with 24 samples.

Results

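Brequinar (BRQ) was added to anti-PD-1 antibody in mice carrying D4M melanoma tumours, and whole-tumour RNA from 6 BRQ+PD-1 tumours was compared with that from 6 PD-1 tumours. The members are the 12 libraries that the labels give to these groups, out of 24 libraries in the series. All mice were labelled C57BL/6 WT. BRQ+PD-1 mice received BRQ and anti-PD1 antibody by intraperitoneal injection, and PD-1 mice received the antibody without BRQ. The other 12 libraries, BRQ+IgG2a and IgG2a with 6 tumours each, come from mice given IgG2a in place of anti-PD-1, and they share no tumour with the 12 compared here. The labels used here give no dose, schedule, sex or age. D4M is a transplantable mouse melanoma line, so every tumour is a mixture of 1 cell line with the host's immune, vascular and connective tissue cells.

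Brequinar inhibits dihydroorotate dehydrogenase (DHODH), the mitochondrial enzyme that makes orotate in the de novo synthesis of pyrimidine nucleotides. Pyrimidines feed RNA, DNA, UDP-sugars and the CDP-choline used for phospholipids, and ribosome production is among the largest consumers of nucleotides in a growing cell. Anti-PD-1 antibody blocks PD-1, an inhibitory receptor on activated T cells, and works on lymphocytes already able to see the tumour. The comparison asks what changes in the tumour when the DHODH inhibitor is given on top of the checkpoint antibody.

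The 12 libraries held 19106205 to 34282319 counts, so 1 CPM (the unit of counts scaled to the library total) stands for 19.1 to 34.3 counts. The labelled tissue was checked against its markers. Of 16 melanocytic genes 6 were measured well enough to test, and the pigment genes Tyr, Tyrp1, Dct, Oca2 and Slc45a2 had 0 counts in all 12 libraries, while Mlana reached 0.0776 CPM and Sox10 1.13 CPM at most. Of 21 genes of undifferentiated melanoma and neural crest 19 were tested, and 16 exceeded 10 CPM in at least 1 library, with up to 1013 CPM of Axl, 191 CPM of Sox9 and 132 CPM of Sox2. The other 5 stayed lower, at most 0.389 CPM for Foxd3, 0.700 for Gfra3, 1.63 for S100b, 1.90 for Ngfr and 4.83 for Moxd1. PD-1 library 6 stood apart through skeletal muscle RNA: the mean of 21 muscle genes was 8.52 log2 CPM there, against -1.56 to 4.60 in the other PD-1 libraries and -2.07 to 4.44 in the BRQ+PD-1 libraries. In BRQ+PD-1 libraries 1 and 2 the deviation of genes from their mean followed gene GC content (Spearman rho -0.535 and -0.272 across genes) and transcript length (0.354 and 0.604), beyond the range of the other 10 libraries (-0.0201 to 0.287 for GC and -0.297 to 0.108 for length). The calls that were lost without these 3 libraries are named with the counts of called genes.

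With brequinar added, 808 of 16029 genes tested changed (5.04%) at an adjusted p under 0.05 in edgeR's quasi-likelihood test, 382 of them higher (2.38%) and 426 lower (2.66%) in BRQ+PD-1 tumours. The transcription factor gene Myc, 14 of 30 genes for ribosome assembly and 7 of 28 targets of the stress factor ATF4 fell. The scavenger receptor gene Scara5, the polycomb-family gene Scml4 and 5 of 25 integrin chains, a family chosen after its values had been seen, rose. Genes of T cells, cytotoxic lymphocytes, interferon responses and MHC class II presentation, of which many rose when brequinar was given with IgG2a, had no called member here. Among 95 called genes described below, 43 had BRQ+PD-1 and PD-1 values that did not overlap (45.3%), against 320 of all 808 called genes (39.6%) and 426 of all genes tested (2.66%). Since these genes were described for being called, their separation is in part set by that choice. Of the 95, 42 were called whichever 1 of the 12 libraries was left out, and 37 were also called under all the other alternative settings in which they were tested. The other 53 lost the call in at least 1 of those 12 fits. Of these, 19 were called in at most 4 fits: Adam12, Aqp3, Arsi, Car2, Dut, Gata2, Mertk, Mitf, Nes, Nhp2, Nop14, Phlda3, Polr1a, Ppl, Psph, Ptdss1, Stra6, Tnfrsf10b and Zmat3. Without PD-1 library 6, 42 of the 95 lost the call, with adjusted p between 0.0501 and 0.339: Adam12, Adss2, Aqp3, Arsi, C1s1, Car2, Cd209f, Ctsk, Cxcl5, Cxxc4, Dut, Eng, Fbl, Gata2, H2-M2, Mcm2, Mcpt2, Mertk, Mitf, Mmp2, Mthfd2, Nes, Nhp2, Nop14, Nop16, Npl, Npm1, Ocstamp, Phlda3, Polr1a, Ppl, Psph, Ptdss1, Rrp12, Slc9b2, Stmn2, Stra6, Tead4, Tfpi2, Tnfrsf10b, Trem2 and Wdr43. Without BRQ+PD-1 libraries 1 and 2 together 37 lost it (0.0507 to 0.222): Adam12, Aen, Aim2, Arsi, Car2, Cd209f, Ctsk, Cxcl5, Ddit4, Dut, Fbl, Fgf21, Fosl1, Gata2, Impdh1, Impdh2, Itgb3, Mcm2, Mcpt2, Mitf, Moxd1, Mthfd2, Myo1d, Nes, Nhp2, Nop14, Nop16, Ocstamp, Phlda3, Psph, Ptdss1, Ptger4, Slc9b2, Stmn2, Tfpi2, Timp3 and Trem2. The number of genes called was 399 without BRQ+PD-1 library 3, and 425, 420 and 413 without PD-1 libraries 1, 2 and 6. Without any other single library it lay between 576 and 1083, and it was 531 without BRQ+PD-1 libraries 1 and 2 together, with 244 higher and 287 lower.

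**Figure D1:**
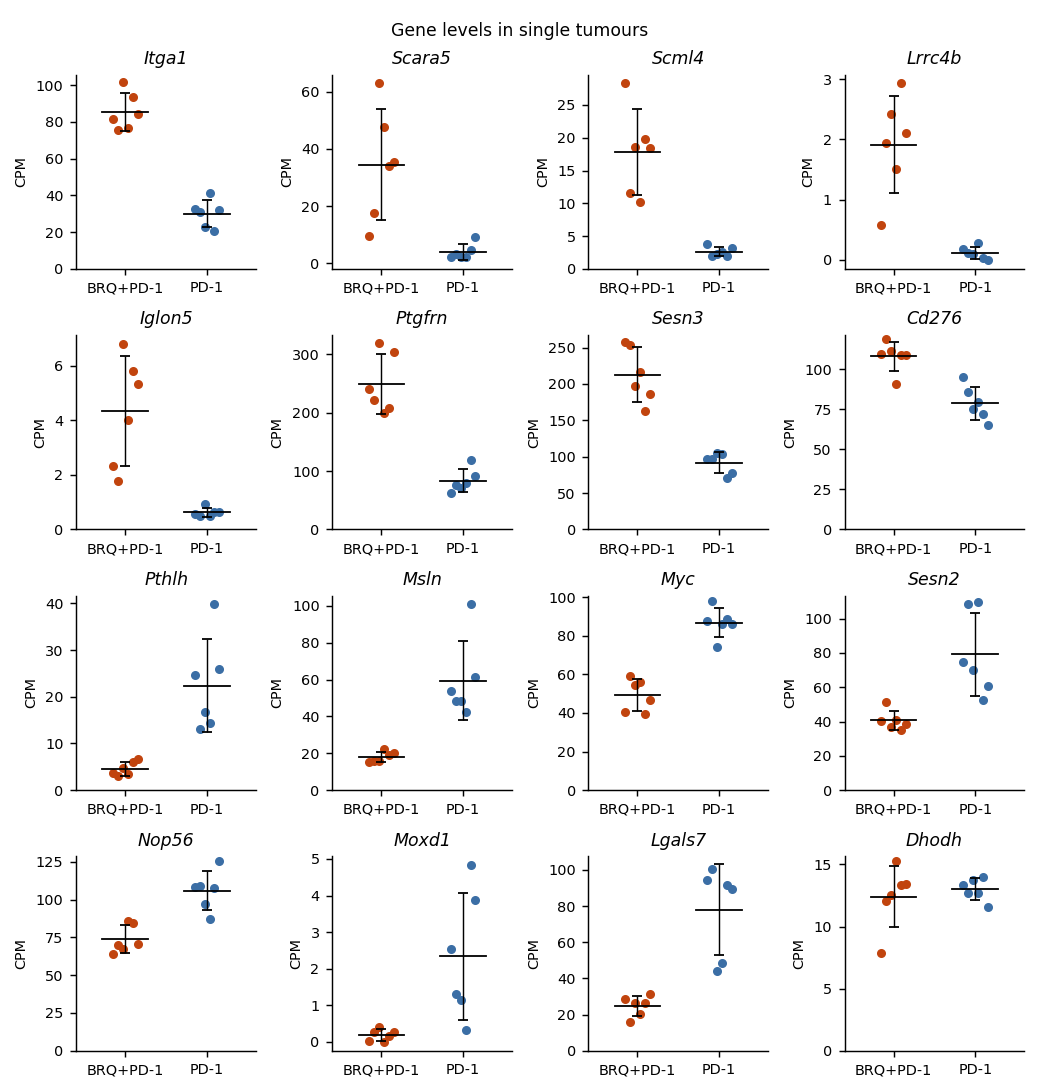
Levels of 16 genes in single tumours, in CPM, with BRQ+PD-1 tumours at the left and PD-1 tumours at the right of each panel. Points are libraries, the horizontal line is the mean and the bar is 1 SD (n = 6 each). The BRQ+PD-1 tumours lie above all PD-1 tumours for Itga1, Scara5, Scml4, Lrrc4b, Iglon5, Ptgfrn and Sesn3 and below all of them for Pthlh, Msln, Myc, Sesn2, Nop56 and Lgals7, while Dhodh overlaps.

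The gene with the lowest p was Itga1, on chromosome 13, which encodes the alpha-1 chain of a collagen-binding integrin. It ranged from 75.5 to 102 CPM in BRQ+PD-1 tumours, with a median of 82.9, and from 20.8 to 41.4 CPM in PD-1 tumours, with a median of 31.5. The groups did not overlap, and the log2 fold change was 1.53 ± 0.16 (SE; adjusted p = 2.76e-05). Itga4, the alpha-4 chain used by leukocytes to bind VCAM-1 and fibronectin, had 40.4 to 145 CPM (median 51.7) in BRQ+PD-1 tumours and 19.9 to 33.6 CPM (median 23.4) in PD-1 tumours, a log2 fold change of 1.47 ± 0.26 (adjusted p = 0.00371). Itga8, a partner of the beta-1 chain in mesenchymal cells, had 4.42 to 10.6 CPM (median 8.39) with BRQ+PD-1 and 2.06 to 3.79 CPM (median 2.94) with PD-1 alone. Its log2 fold change was 1.39 ± 0.25 (adjusted p = 0.00385). Itgb3 and Itgb5, beta chains that pair with the alpha-V chain to bind vitronectin, were also called: Itgb3 by 1.43 ± 0.36 (adjusted p = 0.0232) and the far more abundant Itgb5 by 0.62 ± 0.12 (adjusted p = 0.00466). Itgb5 stood at 454 to 567 CPM in the BRQ+PD-1 tumours, above all PD-1 tumours at 236 to 401 CPM. Without BRQ+PD-1 library 1 the adjusted p of Itgb3 was 0.0683. Of 25 integrin chains tested, a family singled out after its values had been seen, 5 rose and none fell (20%, against 5.04% of all genes). The family's median log2 fold change was 0.25 against 0.01 over all genes.

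Several other genes on the higher side were separated as cleanly. Ptgfrn, whose product binds tetraspanins at the cell surface, had 199 to 320 CPM (median 231) in BRQ+PD-1 tumours and 61.7 to 119 CPM (median 78.4) in PD-1 tumours. The log2 fold change was 1.61 ± 0.19 (adjusted p = 0.000118). Sesn3, a sestrin that restrains the growth kinase mTORC1, had 163 to 258 CPM (median 207) in BRQ+PD-1 tumours against 70.8 to 104 CPM (median 96.9) in PD-1 tumours, which is a log2 difference of 1.24 ± 0.16 (adjusted p = 0.000150). Its paralog Sesn2, induced by ATF4 and p53, moved the other way: 35.0 to 51.3 CPM (median 39.6) in BRQ+PD-1 tumours and 52.4 to 110 CPM (median 72.5) in PD-1 tumours, a log2 fold change of -0.94 ± 0.17 (adjusted p = 0.00456). Pmp22, a membrane protein of compact myelin, rose by 1.06 ± 0.14 (adjusted p = 0.000283), with all 6 BRQ+PD-1 tumours at or above 87.9 CPM and all 6 PD-1 tumours at or below 57.9 CPM.

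The largest increase among genes averaging at least 1 CPM was in a gene of low level. Lrrc4b, which encodes a leucine-rich adhesion protein of synapses, had 0.582 to 2.93 CPM (median 2.02) in BRQ+PD-1 tumours and 0 to 0.275 CPM (median 0.106) in PD-1 tumours. Its log2 fold change was 4.0 ± 0.56 (adjusted p = 0.000505). Scara5, a scavenger receptor that takes up ferritin, had 9.62 to 62.9 CPM (median 34.7) in BRQ+PD-1 tumours and 2.11 to 9.17 CPM (median 2.83) in PD-1 tumours, a log2 fold change of 3.14 ± 0.52 (adjusted p = 0.00228). Scml4, a polycomb-family chromatin protein, had 10.2 to 28.3 CPM (median 18.5) in BRQ+PD-1 tumours and 1.98 to 3.73 CPM (median 2.39) in PD-1 tumours, a log2 fold change of 2.81 ± 0.41 (adjusted p = 0.000729). For all 3 genes the lowest BRQ+PD-1 tumour lay above the highest PD-1 tumour. Iglon5, an immunoglobulin-fold adhesion protein, followed with 1.77 to 6.80 CPM (median 4.68) in BRQ+PD-1 tumours and 0.487 to 0.938 CPM (median 0.603) in PD-1 tumours (log2 fold change 2.80 ± 0.48, adjusted p = 0.00244).

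Of the other 11 genes with the largest increases, Thsd4 (a microfibril-binding matrix protein), Gprin3, Arfgef3, Hspa12a (an HSP70 relative), B3galt1 (a galactosyltransferase) and Myo1d (a class I myosin) had BRQ+PD-1 values above every PD-1 value, with log2 fold changes between 1.99 for B3galt1 and 2.42 for Myo1d. Thsd4 had 29.5 to 87.2 CPM (median 47.0) in BRQ+PD-1 tumours against 2.64 to 19.7 CPM (median 12.6) in PD-1 tumours. Myo1d reached 201 CPM in BRQ+PD-1 library 1, and without BRQ+PD-1 libraries 1 and 2 its adjusted p was 0.0534. H2-M2, a nonclassical MHC class I gene, had 1.18 to 26.2 CPM (median 7.66) in BRQ+PD-1 tumours and 0.350 to 2.01 CPM (median 1.10) in PD-1 tumours, a log2 fold change of 3.12 ± 0.79 (adjusted p = 0.0255). Cxxc4, a zinc finger protein that restrains Wnt signalling, rose by 2.12 ± 0.52, and Ppl, the desmosomal plakin periplakin, by 1.84 ± 0.53 (adjusted p = 0.0214 and 0.0440). Reads of H2-M2 can be shared with other class I genes, and those of the mast cell proteases with their near-identical relatives, so their counts are uncertain.

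Among the decreases, the secreted factor gene Pthlh (parathyroid hormone-related protein) had 3.12 to 6.70 CPM (median 4.17) in BRQ+PD-1 tumours and 13.1 to 39.8 CPM (median 20.6) in PD-1 tumours. Its log2 fold change was -2.26 ± 0.30 (adjusted p = 0.000283). Msln, the surface glycoprotein mesothelin, had 15.3 to 22.4 CPM (median 17.4) in BRQ+PD-1 tumours and 42.6 to 101 CPM (median 51.2) in PD-1 tumours, a log2 fold change of -1.70 ± 0.21 (adjusted p = 0.000150). Lgals7, which encodes galectin-7 of stratified epithelia, had 15.9 to 31.2 CPM (median 26.4) in BRQ+PD-1 tumours and 43.9 to 100.5 CPM (median 90.5) in PD-1 tumours. In all 3 genes the highest BRQ+PD-1 tumour lay below the lowest PD-1 tumour. The log2 fold change of Lgals7 was -1.63 ± 0.28 (adjusted p = 0.00260), yet 13 of the 20 keratinocyte genes in its list were too low to test, and Krt1, Krt6a, Flg and Krtdap had 0 counts in all 12 libraries. Fosl1, an AP-1 subunit, and Tead4, a partner of YAP, fell by 1.06 ± 0.25 and 0.76 ± 0.20 on the log2 scale (adjusted p = 0.0185 and 0.0291), while Nes, the neural progenitor filament nestin, rose by 0.61 ± 0.17 (adjusted p = 0.0405). These 3 and Moxd1 were the called members among 19 genes of neural crest and undifferentiated melanoma. Mitf, the master regulator of melanocytes, rose by 0.97 ± 0.28 (adjusted p = 0.0474), with 15.2 to 48.2 CPM in BRQ+PD-1 tumours and 11.8 to 16.1 CPM in PD-1 tumours. It was the 1 called of 6 melanocytic genes tested (16.7%), and which cells of the tumour held its RNA was not tested. Without BRQ+PD-1 library 1 the adjusted p was 0.148 for Mitf and 0.0985 for Nes.

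Low-level genes made up most of the 15 largest decreases. Moxd1, a relative of dopamine beta-hydroxylase, had 0 to 0.398 CPM (median 0.207) in BRQ+PD-1 tumours and 0.320 to 4.83 CPM (median 1.92) in PD-1 tumours, a log2 fold change of -3.58 ± 0.83 (adjusted p = 0.0158). Tinag, a basement membrane protein, had at most 0.619 CPM in BRQ+PD-1 tumours and at least 1.10 CPM in PD-1 tumours (-2.97 ± 0.64, adjusted p = 0.0113). Padi4, an enzyme that converts arginine to citrulline, had 0.133 to 1.04 CPM (median 0.414) in BRQ+PD-1 tumours against 0.740 to 12.1 CPM (median 3.83) in PD-1 tumours (-3.20 ± 0.63, adjusted p = 0.00589). Ctsk, the collagen-degrading protease cathepsin K, had 4.42 to 17.2 CPM (median 5.61) in BRQ+PD-1 tumours and 7.65 to 105 CPM (median 44.5) in PD-1 tumours, a log2 fold change of -2.67 ± 0.72 (adjusted p = 0.0349). Ocstamp, needed for the fusion of osteoclasts, fell by 1.81 ± 0.45, and Slc9b2, a sodium-proton exchanger, by 3.09 ± 0.81 on the log2 scale (adjusted p = 0.0231 and 0.0294). Aqp3, Stra6 and Tfpi2 were called lower with log2 fold changes between -1.98 and -1.75. Without PD-1 library 6 the adjusted p was 0.0915 for Ctsk, 0.0815 for Ocstamp, 0.132 for Stra6 and 0.150 for Tfpi2.

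Other large decreases rested largely or in part on 1 PD-1 tumour. Cd209f, a C-type lectin gene of a multigene family, had at most 0.387 CPM in BRQ+PD-1 tumours, and 20.1 CPM in PD-1 library 6 but at most 0.449 CPM in the other PD-1 libraries. Cxcl5, a neutrophil-attracting chemokine, had at most 0.193 CPM in BRQ+PD-1 tumours, 13.8 CPM in PD-1 library 6 and at most 0.684 CPM in the other PD-1 libraries. Adjusted p-values without PD-1 library 6 were 0.339 for Cd209f, 0.184 for Cxcl5, 0.245 for Arsi and 0.189 for Adam12. Stmn2, a microtubule regulator of neurons, peaked at 9.54 CPM in PD-1 library 5, against at most 2.52 CPM in the other PD-1 libraries. Its adjusted p was 0.100 without PD-1 library 5, and it was called in 5 of the 12 fits that left out 1 library. Library 6 also carried the muscle genes, and their part in these differences was not tested.

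Ribosome biogenesis had the largest share of called members among the lists of pathways and cell types. Of 30 genes tested, 14 fell and none rose (46.7%, against 5.04% of all genes), 29 had a negative log2 fold change, and the list's median was -0.35. The list mean was 5.84 to 5.97 log2 CPM in BRQ+PD-1 tumours (median 5.93) and 6.09 to 6.45 log2 CPM in PD-1 tumours (median 6.29), without overlap. Without BRQ+PD-1 libraries 1 and 2, 11 members fell and the median was -0.36. Fewer were called without PD-1 library 1 (8), 2 (8) or 6 (6) or BRQ+PD-1 library 3 (9), and the medians over the 12 such fits lay between -0.40 and -0.32. The 14 called members lie on 10 chromosomes, with at most 2 on any.

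The called members cover the steps of ribosome assembly. Polr1a and Polr1b, the largest subunits of RNA polymerase I, fell by 0.44 ± 0.12 and 0.43 ± 0.09 on the log2 scale (adjusted p = 0.0391 and 0.00645). Polr1b had 23.4 to 30.5 CPM (median 26.4) in BRQ+PD-1 tumours and 31.9 to 45.6 CPM (median 36.4) in PD-1 tumours. Nop56, Nop58 and Fbl, the core of the particles that methylate ribosomal RNA, all fell. Nop56 had 63.9 to 85.6 CPM (median 70.1) in BRQ+PD-1 tumours against 87.1 to 125 CPM (median 108) in PD-1 tumours, a log2 fold change of -0.50 ± 0.08 (adjusted p = 0.00158). Nop58 fell by 0.50 ± 0.10 and Fbl by 0.40 ± 0.10 (adjusted p = 0.00562 and 0.0205). Nhp2, a protein of the pseudouridylation particles, fell by 0.53 ± 0.15, and Nolc1, a nucleolar chaperone of such particles, by 0.42 ± 0.08 (adjusted p = 0.0406 and 0.00648). Nop2, a methyltransferase of the large subunit's RNA, had the largest change of the list: 38.8 to 53 CPM (median 46.8) in BRQ+PD-1 tumours and 58.7 to 101 CPM (median 80.1) in PD-1 tumours, a log2 fold change of -0.76 ± 0.11 (adjusted p = 0.000827). Rrp9, Rrp12, Wdr43, Nop14 and Nop16, factors of pre-ribosome processing, fell by 0.30 to 0.62 on the log2 scale, and the nucleolar histone chaperone Npm1, at 421 to 556 CPM in BRQ+PD-1 tumours and 551 to 708 CPM in PD-1 tumours, fell by 0.29 ± 0.07 (adjusted p = 0.0231).

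Myc, a transcription factor that activates ribosome production, also fell: 39.7 to 59.1 CPM (median 50.5) in BRQ+PD-1 tumours and 74.2 to 97.9 CPM (median 87.0) in PD-1 tumours, a log2 fold change of -0.79 ± 0.13 (adjusted p = 0.00134). It was the called member among 13 genes of the MYC network. MYC binds the E-box CACGTG, so the 300 bases around the starts of the called ribosome biogenesis genes (250 before to 50 after, RefSeq windows on GRCm38.p6) were searched for it on both strands, where it reads the same. Windows were at hand for 11 of the 14 genes, and 2 of the 11 held the motif (18.2%), against 4 of 14 uncalled members (28.6%), 1278 of 11408 genes tested (11.2%) and 2349 of 32851 windows in all (7.15%). Whether lower Myc acted on these genes was not tested, and Nop2 lies on chromosome 6, where 10.7% of genes were lower. Both windows that held the motif are shown, with it in capitals. They are Nop2 (chr6:125131633-125131932, plus strand) and Wdr43 (chr17:71615965-71616264, plus strand), 5′ to 3′.
Nop2: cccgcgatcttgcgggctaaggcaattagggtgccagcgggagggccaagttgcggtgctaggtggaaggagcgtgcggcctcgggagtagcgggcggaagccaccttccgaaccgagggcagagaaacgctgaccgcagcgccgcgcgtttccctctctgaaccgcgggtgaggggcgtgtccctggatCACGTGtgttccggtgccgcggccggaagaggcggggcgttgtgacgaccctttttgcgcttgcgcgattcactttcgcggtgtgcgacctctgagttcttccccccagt
Wdr43: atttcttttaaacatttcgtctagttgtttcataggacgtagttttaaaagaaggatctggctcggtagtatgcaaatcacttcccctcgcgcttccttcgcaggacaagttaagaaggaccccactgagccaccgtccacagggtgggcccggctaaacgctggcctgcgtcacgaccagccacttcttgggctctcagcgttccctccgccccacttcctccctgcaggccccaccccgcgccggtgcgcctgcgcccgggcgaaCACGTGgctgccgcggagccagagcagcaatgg

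Protein genes of the ribosome itself were examined after their values had been seen. Of 83 cytosolic ribosomal protein genes tested 12 fell (14.5%, against 5.04% of all genes) and 82 had a negative log2 fold change, with a median of -0.27. Without BRQ+PD-1 libraries 1 and 2 those figures were 3 called and a median of -0.08. Rps6, the small-subunit protein phosphorylated downstream of mTORC1, was called in both fits: it had 466 to 628 CPM (median 536) in BRQ+PD-1 tumours and 670 to 789 CPM (median 739) in PD-1 tumours, a log2 fold change of -0.43 ± 0.07 (adjusted p = 0.00137). Rpl35 fell by 0.53 ± 0.10 (adjusted p = 0.00567), with at most 269 CPM in BRQ+PD-1 tumours and at least 271 CPM in PD-1 tumours. Among 76 mitochondrial ribosomal protein genes 7 fell (9.21%), 2 without those libraries, and the median was -0.19. Cct7, a subunit of the CCT chaperonin that folds actin and tubulin, was the called one of its 8 subunits (-0.42 ± 0.08, adjusted p = 0.00351). Many processed pseudogenes resemble ribosomal protein genes, so their counts are uncertain.

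**Figure D2:**
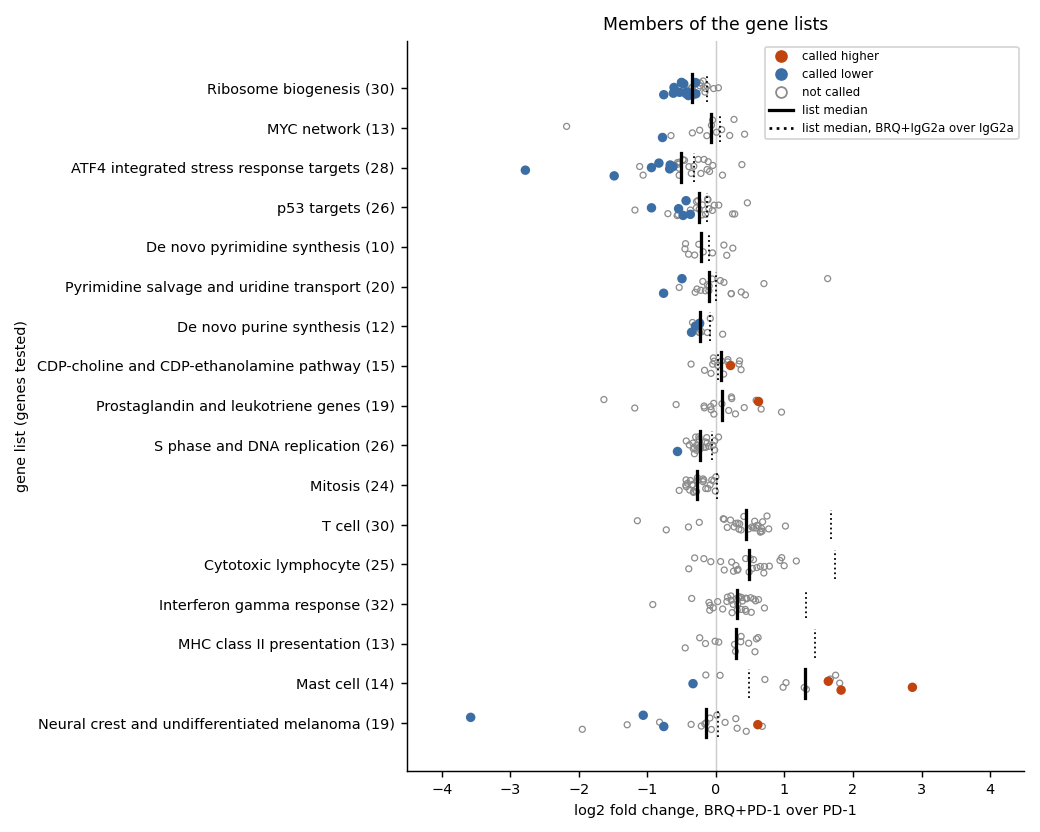
Log2 fold changes of the members of 17 gene lists, BRQ+PD-1 over PD-1, with the number of genes tested after each name. Filled points passed an adjusted p of 0.05 (orange higher, blue lower), thick bars are list medians and dotted bars are the medians of BRQ+IgG2a over IgG2a. The 14 lower members of ribosome biogenesis stand together left of 0, and the T cell list has no filled point and a median of 0.44, against 1.67 under IgG2a.

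Targets of ATF4, the transcription factor of the integrated stress response, also fell. Of 28 genes tested 7 fell and none rose (25%, against 5.04% of all genes), 26 had a negative log2 fold change, and the median was -0.50. The 7 became 2 without PD-1 library 2 or BRQ+PD-1 library 3 and 4 without BRQ+PD-1 library 2. Without BRQ+PD-1 libraries 1 and 2 together, Ddit4, Fgf21, Mthfd2 and Psph lost the call (adjusted p = 0.136, 0.0776, 0.0627 and 0.149). The list mean was 4.69 to 5.30 log2 CPM in BRQ+PD-1 tumours (median 4.98) and 5.2 to 5.89 log2 CPM in PD-1 tumours (median 5.48). Chac1, a glutathione-degrading enzyme, had 6.96 to 11.8 CPM (median 8.75) in BRQ+PD-1 tumours and 10.1 to 44.4 CPM (median 22.6) in PD-1 tumours, which is a log2 difference of -1.48 ± 0.37 (adjusted p = 0.0227). Shmt2, which splits serine in mitochondria, had 82.8 to 149 CPM (median 114) in BRQ+PD-1 tumours and 152 to 219 CPM (median 182) in PD-1 tumours, a log2 fold change of -0.67 ± 0.15 (adjusted p = 0.0124). Mthfd2, the next enzyme of that pathway, fell by 0.83 ± 0.22 and Psph, the last step of serine synthesis, by 0.63 ± 0.18 (adjusted p = 0.0325 and 0.0403). Ddit4, an inhibitor of mTORC1, fell by 0.67 ± 0.18 (adjusted p = 0.0292). Fgf21, a secreted stress hormone, had at most 0.258 CPM in BRQ+PD-1 tumours and at least 0.346 CPM in PD-1 tumours (-2.78 ± 0.67, adjusted p = 0.0184). Its level was low, at most a few counts in each BRQ+PD-1 library and up to 1.69 CPM in PD-1 library 2.

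ATF4 with its C/EBP partners binds elements that read TGATGNAAN, in which N is any base. On either strand this motif stood in the promoter windows of 2 of the 7 called genes (28.6%), 6 of 16 uncalled members (37.5%), 320 of 11408 genes tested (2.81%) and 1299 of 32851 windows (3.95%). The 2 windows are shown because both genes are classical ATF4 targets of the list that fell. Whether ATF4 acted through the motif was not tested. The motif, in capitals, lies on the opposite strand in both. They are Chac1 (chr2:119350992-119351291, plus strand) and Fgf21 (chr7:45615441-45615740, minus strand) of GRCm38.p6, 5′ to 3′.
Chac1: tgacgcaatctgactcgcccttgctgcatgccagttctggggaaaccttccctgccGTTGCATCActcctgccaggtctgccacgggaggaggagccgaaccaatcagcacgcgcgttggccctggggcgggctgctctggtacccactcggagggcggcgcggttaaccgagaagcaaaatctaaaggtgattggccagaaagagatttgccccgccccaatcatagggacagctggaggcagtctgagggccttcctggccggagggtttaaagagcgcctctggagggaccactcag
Fgf21: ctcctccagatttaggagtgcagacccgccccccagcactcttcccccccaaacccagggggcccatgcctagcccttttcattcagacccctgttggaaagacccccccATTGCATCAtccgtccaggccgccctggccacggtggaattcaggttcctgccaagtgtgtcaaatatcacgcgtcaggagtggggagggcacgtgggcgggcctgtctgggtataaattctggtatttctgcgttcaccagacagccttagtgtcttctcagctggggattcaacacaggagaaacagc

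Among 26 p53 target genes 5 fell and none rose (19.2%, against 5.04% of all genes), with a median of -0.25. Besides Sesn2 these were Aen, an exonuclease of apoptosis (27.0 to 37.7 CPM in BRQ+PD-1 tumours and 36.9 to 58.8 CPM in PD-1 tumours, log2 fold change -0.54 ± 0.12, adjusted p = 0.0129), Phlda3, the RNA-binding protein Zmat3 and the death receptor gene Tnfrsf10b. With 1 library left out, 2 to 4 members were lower and at most 1 was higher.

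The target enzyme's own gene was not called. Dhodh had 7.88 to 15.3 CPM (median 12.9) in BRQ+PD-1 tumours and 11.5 to 14 CPM (median 13.0) in PD-1 tumours, a log2 fold change of -0.05 ± 0.11 (adjusted p = 0.836). None of the 10 genes of de novo pyrimidine synthesis was called, and their median was -0.22. Cad, which carries the opening enzyme activities of the pathway, had a log2 fold change of -0.25 ± 0.11 and Umps, which follows DHODH, -0.18 ± 0.12 (adjusted p = 0.184 and 0.379). Nme1 and Ctps, which make the triphosphates and CTP, had values of -0.45 ± 0.14 and -0.31 ± 0.11 (adjusted p = 0.0620 and 0.104). In pyrimidine salvage and transport 2 of 20 genes fell (10%, against 5.04% of all genes). Slc29a2, an equilibrative nucleoside transporter, had 4.61 to 6.5 CPM (median 5.14) in BRQ+PD-1 tumours and 7.41 to 13.2 CPM (median 8.96) in PD-1 tumours (-0.76 ± 0.17, adjusted p = 0.0129), and the dUTPase gene Dut fell by 0.49 ± 0.15 (adjusted p = 0.0483). In de novo purine synthesis 3 of 12 genes fell (25%), all after the branch at inosine monophosphate. Impdh1 and Impdh2, which lead to GMP, fell by 0.36 ± 0.08 and 0.30 ± 0.08, and Adss2, which leads to AMP, by 0.24 ± 0.06 (adjusted p = 0.0158, 0.0270 and 0.0304). Of the 15 genes that make phosphatidylcholine and phosphatidylethanolamine through CDP-activated intermediates, and related steps, Ptdss1, a phosphatidylserine synthase, rose by 0.21 ± 0.06 (adjusted p = 0.0432). Chka, choline kinase, and Pcyt1a, the enzyme that makes CDP-choline, had log2 fold changes of -0.36 ± 0.12 and 0.37 ± 0.12 and missed the threshold (adjusted p = 0.0828 and 0.0827).

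Prostaglandin genes showed little that passed the test. Ptgs2 (COX-2) varied widely, with 36.3 to 1187 CPM (median 223) in BRQ+PD-1 tumours and 100 to 779 CPM (median 264) in PD-1 tumours, and its log2 fold change was 0.19 ± 0.85 (adjusted p = 0.924). Of 19 genes of the pathway Ptger4, a receptor for prostaglandin E2, rose by 0.61 ± 0.17 (adjusted p = 0.0336). In DNA replication 1 of 26 genes was called, the helicase subunit gene Mcm2 (-0.57 ± 0.16, adjusted p = 0.0341), although 25 had negative values and the median was -0.24. No mitosis gene of 24 was called. All 24 had negative values, with a median of -0.28, and the lowest p-values belonged to Ube2c and Aurka (-0.54 ± 0.18 and -0.44 ± 0.18, adjusted p = 0.0794 and 0.163). No member was called among 26 glycolysis and hypoxia genes (median -0.01; Hk2 -0.52 ± 0.20 and Gapdh -0.28 ± 0.12), 26 genes of cholesterol and fatty acid synthesis (median 0.02; Scd1 0.18 ± 0.15) or 19 genes of transcription elongation (median 0.05; Nelfa -0.19 ± 0.07 and Ccnt2 0.22 ± 0.10). Nuclear genes of oxidative phosphorylation had a median of -0.16 over 28 genes (Cycs -0.50 ± 0.16, Ndufa9 -0.29 ± 0.10), and the 12 mitochondrially encoded genes a median of 0.34 (mt-Nd3 0.52 ± 0.16, mt-Atp6 0.50 ± 0.18), with none called in either. Without BRQ+PD-1 libraries 1 and 2 the 2 medians were -0.06 and 0.04.

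Genes of T cells and of their effector programmes did not pass the test. None of 30 T cell genes was called, 26 had a positive log2 fold change, and the median was 0.44. Cd8a had 3.45 to 21.6 CPM (median 12) in BRQ+PD-1 tumours and 3.93 to 14.5 CPM (median 7.0) in PD-1 tumours, a log2 fold change of 0.67 ± 0.48 (adjusted p = 0.436). Cd4 had 4.66 to 14.8 CPM (median 6.97) in BRQ+PD-1 tumours and 3.72 to 7.11 CPM (median 6.05) in PD-1 tumours, which is a log2 difference of 0.48 ± 0.28 (adjusted p = 0.320). For both coreceptors the groups overlapped. Icos, a costimulatory receptor, and Tcf7, a factor of memory-like T cells, had the lowest p of the list, with 1.01 ± 0.45 and -0.40 ± 0.17 (adjusted p = 0.191 and 0.165). In whole tumours, fewer cells of a type and less RNA per cell cannot be told apart.

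None of 25 cytotoxic lymphocyte genes was called, with a median of 0.48. Prf1, the pore protein perforin, had 6.39 to 14.5 CPM (median 9.03) in BRQ+PD-1 tumours and 3.57 to 7.54 CPM (median 4.61) in PD-1 tumours, with 4 of 6 BRQ+PD-1 tumours above every PD-1 tumour. Its log2 fold change was 0.93 ± 0.35 (adjusted p = 0.121), and that of Cst7, a granule protease inhibitor, 0.96 ± 0.29 (adjusted p = 0.0519). Ifng had 0.504 to 2.94 CPM in BRQ+PD-1 tumours and 0.524 to 1.14 CPM in PD-1 tumours (0.71 ± 0.65, adjusted p = 0.562). No gene was called among 32 of the interferon gamma response (median 0.31; Jak1 0.22 ± 0.07 and Ifngr1 0.24 ± 0.08), 36 of the type I interferon response (median 0.10; Parp9 and Dtx3l 0.39 ± 0.13 each), 12 of regulatory T cells (median 0.33; Foxp3 0.81 ± 0.49 and Ikzf2 0.30 ± 0.16) or 13 of MHC class II presentation (median 0.29). H2-Ab1, a class II chain, and Cd74, the invariant chain, had values of 0.48 ± 0.44 and 0.59 ± 0.39, Ctss 0.37 ± 0.23, and the classical class I gene H2-K1 0.24 ± 0.17. Of 25 genes of class I presentation, H2-M2 was the called one. Among 18 checkpoint genes Cd276 (B7-H3) rose, with 90.5 to 119 CPM (median 109) in BRQ+PD-1 tumours and 65.0 to 94.9 CPM (median 77.2) in PD-1 tumours (0.48 ± 0.10, adjusted p = 0.00806). Cd274 (PD-L1) had 41.1 to 69.0 CPM (median 46.0) in BRQ+PD-1 tumours and 23.3 to 44.5 CPM (median 34.2) in PD-1 tumours (0.62 ± 0.27, adjusted p = 0.182), and Pdcd1, which encodes PD-1 itself, 0.50 ± 0.41 (adjusted p = 0.507).

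Mast cell genes had the largest positive median of the cell-type lists, 1.30 over 14 genes, with 3 called higher and 1 lower (28.6%, against 5.04% of all genes). Mcpt2, a chymase, had 6.13 to 46.4 CPM (median 20.5) in BRQ+PD-1 tumours and 0.272 to 7.90 CPM (median 1.76) in PD-1 tumours (2.87 ± 0.82, adjusted p = 0.0441). The tryptase genes Tpsb2 and Tpsab1 rose by 1.64 ± 0.44 and 1.83 ± 0.49 (adjusted p = 0.0329 and 0.0321). Gata2, a transcription factor that mast cells share with endothelial cells, fell by 0.33 ± 0.10 (adjusted p = 0.0487). The list mean was 2.19 to 4.22 log2 CPM in BRQ+PD-1 tumours (median 3.04) and 1.03 to 2.54 log2 CPM in PD-1 tumours (median 2.06), and the groups overlapped. Calls in this list varied with single libraries, between 0 and 6 higher, and none was higher without PD-1 library 2, 4 or 5 or BRQ+PD-1 library 1 or 3.

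Among other cells, Zbtb46, the transcription factor of classical dendritic cells, had 13.8 to 20.1 CPM (median 16.4) in BRQ+PD-1 tumours and 7.86 to 14.9 CPM (median 10.1) in PD-1 tumours (0.66 ± 0.14, adjusted p = 0.00801). It was the 1 called of 18 dendritic cell genes (5.56%, against 5.04% of all genes). Of 34 macrophage and monocyte genes 8.82% were called. Trem2, a lipid receptor, rose by 0.59 ± 0.16, while Mertk, a receptor for dying cells, and Npl, a sialic acid lyase, fell by 0.38 ± 0.11 and 1.42 ± 0.35 (adjusted p = 0.0392, 0.0391 and 0.0225). Without PD-1 library 6 these became 0.0931, 0.0744 and 0.0719. Aim2, a sensor of cytosolic DNA, rose by 0.87 ± 0.24 (adjusted p = 0.0334), the 1 called of 19 sensors (5.26%). The complement genes C1s1, a serine protease of the classical pathway, and Cd46, a membrane regulator, rose by 0.52 ± 0.14 and 1.03 ± 0.23 (adjusted p = 0.0341 and 0.0119). They were the 2 called of 17 complement genes (11.8%). In the stroma, the gelatinase gene Mmp2 had 793 to 1116 CPM (median 918) in BRQ+PD-1 tumours and 454 to 802 CPM (median 650) in PD-1 tumours (0.58 ± 0.14, adjusted p = 0.0226), and the inhibitor gene Timp3 rose by 0.86 ± 0.22 (adjusted p = 0.0256). Mmp2 and Timp3 were the 2 called of 26 fibroblast and matrix genes (7.69%). Eng, the endothelial receptor endoglin, rose by 0.32 ± 0.08 (adjusted p = 0.0238), the 1 called of 18 endothelial genes (5.56%).

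No member of the lists for skeletal muscle, fat cells, neutrophils, B cells, or smooth muscle and pericytes was called. The neutrophil list did not hold Padi4, which was called lower. The muscle median was -3.66 over 21 genes and 0.11 without the 4 muscle-rich libraries of the series, and the fat cell median was -2.68 and -0.93. Those libraries were PD-1 library 6, IgG2a libraries 2 and 3 and BRQ+IgG2a library 4, so the IgG2a comparison holds muscle-rich tumours too. Myh2 and Tnni2 (muscle fibres), Tpm2 (tropomyosin), Plin1 and Cidec (fat droplets) and the B cell genes Ighd and Cd79a had log2 fold changes of -7.26 ± 2.98, -3.93 ± 2.03, -3.42 ± 1.78, -3.66 ± 1.44, -3.78 ± 1.59, -3.03 ± 1.07 and -2.20 ± 0.83. The neutrophil median was -0.63 over 15 genes (Cxcr2 -2.04 ± 0.68, S100a9 -1.44 ± 0.59), and the pericyte receptor gene Pdgfrb had 0.33 ± 0.15. Car2, a carbonic anhydrase, was the called one of 6 erythroid genes (-1.41 ± 0.42, adjusted p = 0.0498), with an adjusted p of 0.184 without PD-1 library 6.

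**Figure D3:**
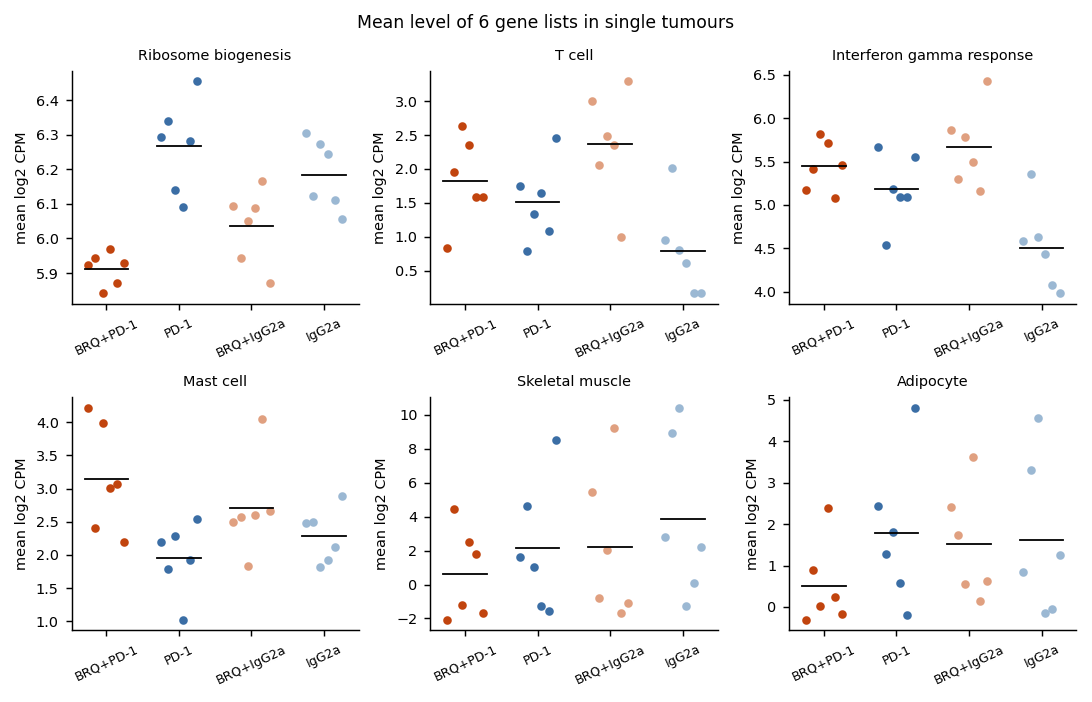
Mean log2 CPM of 6 gene lists in each tumour, with BRQ+PD-1, PD-1, BRQ+IgG2a and IgG2a tumours from left to right and a line at each group's mean (n = 6 each). Ribosome biogenesis does not overlap between BRQ+PD-1 (5.84 to 5.97) and PD-1 (6.09 to 6.45), the T cell list overlaps, and skeletal muscle reaches 8.52 in PD-1 library 6, 9.21 in a BRQ+IgG2a tumour and 10.4 in an IgG2a tumour.

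Whether brequinar acted alike under either antibody was examined with the BRQ+IgG2a and IgG2a tumours. There, 554 genes were called (3.46%), 475 higher (2.96%) and 79 lower (0.493%). Of the 808 genes called with anti-PD-1, 742 had the same sign under IgG2a (91.8%, against 67.6% of all genes tested). Of these, 98 were called in both, 72 higher and 26 lower, which is 12.1% of the 808 and 17.7% of the 554, and no gene was called in opposite directions. Scara5 (3.89 ± 0.53), H2-M2 (4.01 ± 0.84), Scml4 (2.33 ± 0.40), Iglon5 (2.44 ± 0.47), Ptgfrn (1.30 ± 0.19), Sesn3 (1.27 ± 0.16) and Itga1 (0.87 ± 0.16) rose under IgG2a too, and Msln (-1.04 ± 0.21), Sesn2 (-0.66 ± 0.17), Chac1 (-1.37 ± 0.37), Fgf21 (-2.37 ± 0.63) and Nop56 (-0.33 ± 0.08) fell.

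**Figure D4:**
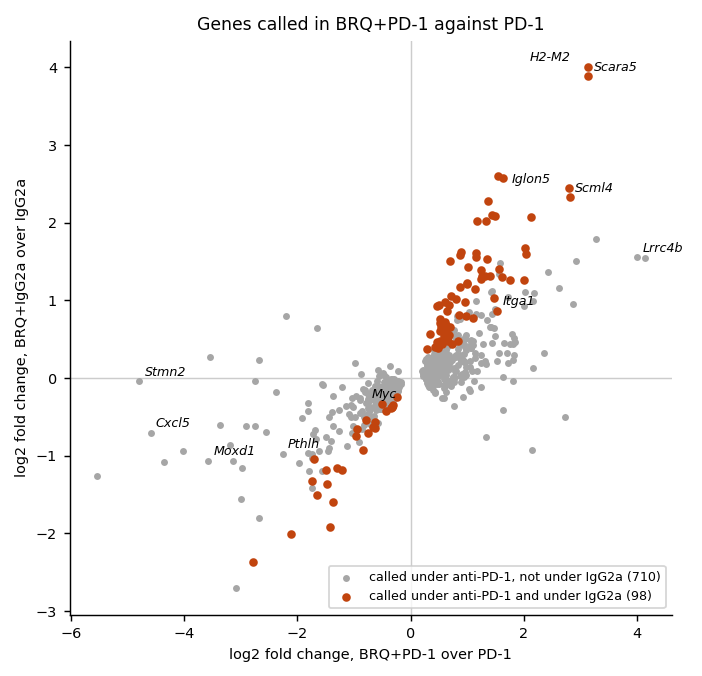
Log2 fold changes of the 808 genes called in BRQ+PD-1 against PD-1, with that comparison on the horizontal axis and BRQ+IgG2a against IgG2a on the vertical axis. The 98 genes called in both are orange and lie in the quadrants of equal sign, and the 710 others are grey.

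The difference between the brequinar effects under the antibodies was tested gene by gene as an interaction. No gene passed an adjusted p of 0.05 in edgeR, the smallest being 0.206, while 1222 genes had an unadjusted p under 0.05, DESeq2 called 13 and limma voom 272. T cell genes had a median of 0.44 with anti-PD-1 and 1.67 with IgG2a, where 18 of 30 rose. Over all genes 2.96% were called higher under IgG2a. Cytotoxic genes had 0.48 and 1.74 (15 of 25 rose under IgG2a), interferon gamma response genes 0.31 and 1.32 (17 of 32), type I interferon response genes 0.10 and 0.98 (27 of 36) and MHC class II genes 0.29 and 1.44 (8 of 13). The reference groups started from unlike levels, with overlap. The T cell list averaged 0.788 log2 CPM in IgG2a, 1.51 in PD-1, 1.83 in BRQ+PD-1 and 2.36 in BRQ+IgG2a tumours. For the class II list these means were 4.53, 5.37, 5.63 and 5.86. Cd4 rose by 2.05 ± 0.29 under IgG2a, a difference of -1.57 between the antibodies (unadjusted p = 0.000542, adjusted p = 0.387). Prf1 rose by 2.48 ± 0.37, a difference of -1.54 (unadjusted p = 0.00486, adjusted p = 0.529), and Cd274 by 1.45 ± 0.27. Myc (-0.32 ± 0.12) and Pthlh (-0.97 ± 0.29) were not called under IgG2a, and their differences of -0.47 and -1.29 did not pass either (unadjusted p = 0.0142 and 0.00429). Among ribosome biogenesis genes 1 of 30 fell under IgG2a, against 0.493% of all genes, with a list median of -0.14, and the test of the difference called none. Of 15 genes listed because brequinar moved them under IgG2a in earlier results on these tumours, 5 rose and 2 fell with anti-PD-1 (46.7%, against 5.04% of all genes). Rab15 and Prss22 were not called here: Rab15, a small GTPase, had -1.01 ± 0.37 (adjusted p = 0.117) with anti-PD-1 and -1.73 ± 0.38 under IgG2a, and the serine protease gene Prss22 had 0.12 ± 0.48 and -1.78 ± 0.50.

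Called genes were unevenly spread over chromosomes, which was noticed in the data. On chromosome 6, 89 of 835 genes tested were lower (10.7%, against 2.66% of all genes) and 11 higher. On chromosome 16, 52 of 503 were higher (10.3%, against 2.38%) and 2 lower. In BRQ+IgG2a against IgG2a, 34 genes of chromosome 6 were higher and 1 lower, and 15 of chromosome 16 were higher and 0 lower. Over all 16029 genes that comparison called 475 higher and 79 lower. Pthlh, Nop2, Polr1a, Mthfd2, Impdh1, Mcm2, Tead4, Tfpi2, Gata2 and Cct7 lie on chromosome 6, and Itgb5 and Ppl on chromosome 16. For each library the median deviation of a chromosome's genes from their means over the 24 libraries was taken, over 504 and 320 genes above 3 log2 CPM. On chromosome 6 it was -0.083 to 0.0037 in BRQ+PD-1 libraries, while PD-1 libraries 1, 2, 4 and 6 stood at 0.19, 0.20, 0.087 and 0.17 and PD-1 libraries 3 and 5 at 0.0091 and -0.024. BRQ+IgG2a libraries stood at -0.074 to -0.038 and IgG2a libraries at -0.076 to 0.090. The difference of the group means, BRQ+PD-1 minus PD-1, was -0.15 log2, and it was -0.18 with an offset for GC content and length, -0.13 without PD-1 library 6 and -0.17 without BRQ+PD-1 libraries 1 and 2. On chromosome 16 the libraries stood at -0.030 to 0.31 in BRQ+PD-1 and -0.14 to -0.039 in PD-1, and the groups did not overlap. That difference was 0.21 log2, 0.18 with the offset, 0.21 without PD-1 library 6 and 0.14 without BRQ+PD-1 libraries 1 and 2. Both chromosomes were picked for what these libraries showed, so no test is given. Outside these chromosomes 654 of 14691 genes were called (4.45%), 319 higher and 335 lower. Gene copy number was not measured, and the part of DNA changes between tumours of the line was not tested.

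**Figure D5:**
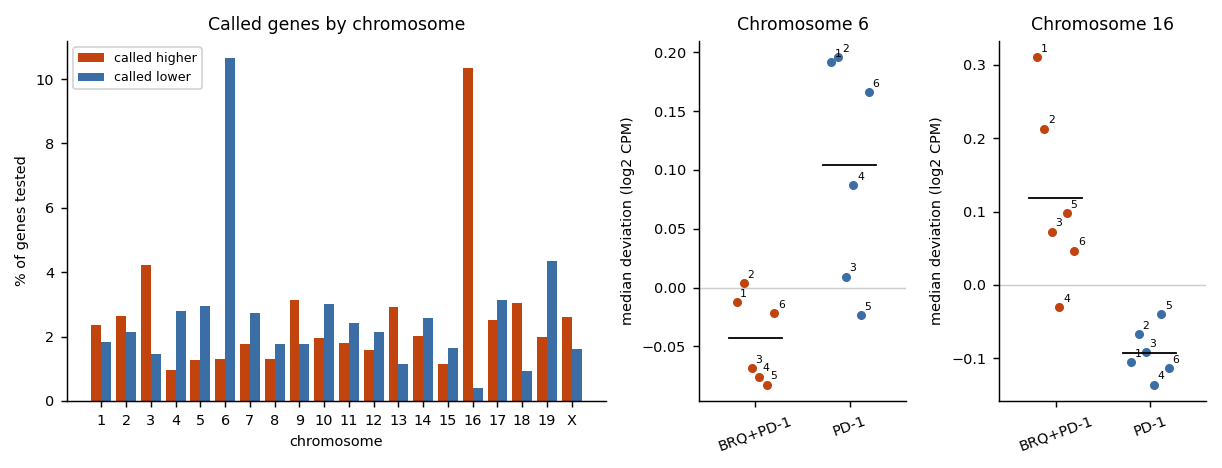
Left, the percentage of tested genes on each chromosome called higher (orange) and lower (blue) in BRQ+PD-1 against PD-1 tumours. Right, the median deviation in log2 CPM of genes on chromosomes 6 and 16 in each library, numbered by replicate, with a line at each group's mean. Chromosome 6 has 10.7% lower and chromosome 16 10.3% higher, and PD-1 libraries 1, 2, 4 and 6 lie above the other 8 BRQ+PD-1 and PD-1 libraries on chromosome 6.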

How the data were processed

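Bulk RNA-seq of 24 mouse tumours was used; per the labels' protocols, tumour RNA was extracted with a column kit and sequenced by a service company. Raw read counts per gene are the values the authors deposited. The submitters' processing notes name HISAT2 2.2.1, StringTie 2.2.1, Trim Galore 0.6.7, MultiQC 1.11, FastQC 0.11.8 and the GRCm39 build. The sources used here do not give the counter, its strand setting or its treatment of multi-mapping reads, so overlapping, antisense and near-identical genes may share counts.

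Of 55414 genes, 16029 passed edgeR's expression filter and were tested in R 4.3.3 with edgeR 4.0.16 (TMM scaling, robust quasi-likelihood F test, Benjamini-Hochberg over all genes tested, threshold 0.05). The fit held all 24 libraries with the group as its only term (20 residual degrees of freedom). CPM divides counts by the library total. Log2 fold changes carry SE = |log2 fold change|/√F. List means use log2 CPM with a prior count of 2. The test was checked on simulated data for BRQ+PD-1 against PD-1 with 200 of 16029 genes changed: at a fold of 1.5 the calls included 34 of 67 such genes, at 2-fold 56 of 67 and at 4-fold 64 of 66, and 10 unchanged genes were called. The changed genes were drawn from those with a mean above 2 CPM, so genes of lower level were not covered. Counts were drawn independently for each gene. Shifts shared by many genes of a library, such as muscle RNA, GC content, length or chromosome, were not simulated. Alternatives were DESeq2 1.42.0, limma 3.58.1 voom with quality weights, RLE scaling, no filter, no robust step, a replicate block, the groups alone, and libraries left out; leaving out BRQ+PD-1 libraries 1 and 2, and an offset for GC content and transcript length, were chosen after seeing the data, as were the chromosome medians.

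Genes named were the 15 largest changes each way among called genes with a mean of at least 1 CPM, a panel of 24 genes, and from each of 43 lists up to 3 called genes or, with none called, the 2 of lowest p; further called genes and 6 families were named after their values were seen. A gene that the rule names in the cholesterol list is not reported here. Members and lists were chosen with earlier results of these data known. Where no share is printed, counts of called list members in BRQ+PD-1 against PD-1 stand beside 5.04% called among all genes. Of 878 list genes 877 matched a gene, 5 through an older symbol. P-values set the difference between groups against the spread between tumours, as estimated in the fit of all 24 libraries. Promoter windows are RefSeq's on GRCm38.p6, another build than that of the counts.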

Additional observations from a re-analysis of the deposited data

Results flagged for a closer look

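For the genes described, 290 groups of 6 tumours were examined for a tumour set apart from the others by Dixon's criterion (its gap to the nearest tumour, as a share of the group's range), and 43 were found. For independent values from a normal distribution about 1 in 20 such groups would be found. CPM values need not follow that distribution, and 1 library can stand apart in many genes. The 43 of 290 can therefore not be set against that share. Among BRQ+PD-1 tumours, library 1 was the highest for Myo1d (201 CPM, against 84.0 CPM in the next tumour), Itga4 (145 and 68.6 CPM), Aqp3 (1.13 and 0.442 CPM), Mitf (48.2 and 27.3 CPM) and Ptgs2 (1187 and 279 CPM). BRQ+PD-1 library 2 was the highest for B3galt1 (10.9 CPM), Ctsk (17.2 CPM), Stra6 (1.18 CPM), Sesn2 (51.3 CPM) and Tnni2 (13.8 CPM). BRQ+PD-1 library 4 was the highest for Cd209f and Stmn2 (0.387 CPM each), Psph (27.8 CPM), Plin1 (0.619 CPM) and Cidec (0.503 CPM), and the lowest for Cd276 (90.5 CPM, against 109 CPM in the next tumour). BRQ+PD-1 library 3 was the highest for C1s1 (136 CPM), and library 6 for Hk2 (129 CPM) and Gapdh (3134 CPM).

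Of the 43, 17 came from PD-1 library 6, the tumour with the most muscle RNA of its group. It was the highest of its group for the muscle genes Myh2 (316 CPM, against 28.7 CPM in the next tumour), Tnni2 (342 and 23.1 CPM) and Tpm2 (540 and 56.0 CPM) and for the fat cell genes Plin1 (8.01 CPM) and Cidec (6.10 CPM). It was also the highest for the B cell genes Ighd (16.1 CPM) and Cd79a (13.6 CPM), and for Cxcr2 (5.83 CPM), Cd209f (20.1 CPM), Cxcl5 (13.8 CPM), Arsi (13.8 CPM), Adam12 (42.8 CPM), Npl (18.6 CPM), Pdcd1 (8.05 CPM), Tpsb2 (24.7 CPM), Scara5 (9.17 CPM) and Hspa12a (5.21 CPM). PD-1 library 5 was the highest for Stmn2 (9.54 CPM), Msln (101 CPM), Slc29a2 (13.2 CPM) and Ptgs2 (779 CPM). PD-1 library 3 was the highest for Iglon5 (0.938 CPM) and Cd46 (1.93 CPM), and PD-1 library 2 for Fgf21 (1.69 CPM).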

How the results depend on the processing

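RLE scaling gave 814 genes in BRQ+PD-1 against PD-1, the fit without the robust step 818 and the GC and length offset 1010. The count was 431 with no expression filter (180 higher, 251 lower), 360 with the groups alone (171 and 189), 502 without the 4 muscle-rich libraries (236 lower), 531 without BRQ+PD-1 libraries 1 and 2 (244 higher), 1340 in DESeq2 (600 and 740) and 2194 in limma voom (1057 and 1137). For BRQ+IgG2a against IgG2a, DESeq2 gave 876 genes (173 lower) and limma voom 2113 (1347 and 766). The difference between antibodies gave 1 gene (higher) without the muscle-rich libraries, 13 in DESeq2 (8 and 5) and 272 in limma voom (144 and 128).

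Distinct list members called numbered 21 higher and 41 lower; they were 8 and 25 with no filter, 12 and 27 with the groups alone, 33 and 67 in DESeq2, 61 and 108 in limma voom, and 24 lower without the muscle-rich libraries. With 1 library left out, BRQ+PD-1 against PD-1 gave 399 to 1083 genes (207 to 521 higher, 190 to 562 lower), BRQ+IgG2a against IgG2a 258 to 1179 (232 to 813 and 26 to 366), the difference 0 to 1 (0 to 1 higher, 0 lower), and the lists 7 to 28 members higher and 19 to 46 lower. The cause of these shifts was not tested.

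Replicate numbers did not pair the tumours: same-numbered tumours' deviations correlated at 0.0229, 0.470, 0.357, -0.351, -0.309 and -0.644, and none was closest to its own number. With a replicate block, 411 genes were called (204 higher, 207 lower) and 7 and 20 list members, and 361 in the IgG2a comparison (42 lower).

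Uncalled genes changed sign as follows. Without the muscle-rich libraries Ptgs2 was -0.019, Ighd 0.97 and Cd79a 0.62. In limma voom Ptgs2 was -0.39, Scd1 -0.082, Ighd 0.40 and Cd79a 0.55. Without BRQ+PD-1 libraries 1 and 2 Dhodh was 0.060, Ptgs2 -0.78 and Scd1 -0.13, and with the offset Ptgs2 was -0.045. With 1 library left out, Dhodh ranged between -0.098 and 0.034, Ptgs2 between -0.79 and 0.66, Prss22 between -0.037 and 0.42, Ighd between -3.37 and 0.98 and Cd79a between -2.44 and 0.62. Of the 95 called genes described, 48 were called with the replicate block, 55 with no filter, 58 without BRQ+PD-1 libraries 1 and 2, 62 without the muscle-rich libraries, 85 in limma voom, 90 with the offset, and 94 each in DESeq2, with RLE scaling and with no robust step. With the groups alone it was 58 of 90.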
